A study of Mus musculus with 4 samples.

Results

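The tumour suppressor p53 (gene symbol Trp53), the targets it switches on and the regulators that set its level were followed in mouse lung tumours whose cells are labelled as carrying a p53 deletion. The 10 genes described were chosen by symbol: Trp53 itself, its targets Cdkn1a, Mdm2, Ccng1, Eda2r, Phlda3, Zmat3, Aen and Bax, and Cdkn2a, which acts upstream of it. They are 10 of the 32285 mouse genes in the count tables, and each was read as UMIs (unique molecular identifiers, which count captured transcripts) in all 4 single-cell RNA libraries.

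All 4 libraries came from mice with the same alleles. Those described here are p53 frt, a Trp53 copy flanked by target sites of the recombinase Flp; Rosa FSF-CreERT2, a tamoxifen-activated Cre that is itself turned on by Flp; and Hnf4a flox, which active Cre can delete. Tumours were started by an adenovirus that expresses FlpO from the mouse surfactant protein C promoter, which is active in alveolar type 2 cells, so stromal and immune cells are taken to keep Trp53, which was not tested. At 10 weeks the mice received tamoxifen, or a vehicle that the labels give once as corn oil and once as ethanol, and the tumours were taken 2 weeks later. From each treatment 1 library was made before and 1 after magnetic depletion of CD45-positive and CD31-positive (immune and endothelial) cells, so vehicle and tamoxifen have 1 library before and 1 after depletion each. Neither the ages nor the number of mice and tumours pooled in a suspension is given. The 2 portions of a treatment are not separate animals, and with 1 library per group no test was possible: intervals below are 95% counting intervals and say nothing of variation between mice.

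Of the 7658, 7284, 6558 and 7867 barcodes (vehicle before and after depletion, then tamoxifen before and after, the order used throughout), 7079, 6923, 6111 and 7358 passed the filters. Their median depth was 9302, 17733, 9894 and 16484 UMIs. Between 10 and 18 barcodes were shared by any pair of libraries, at most 0.274% of the smaller one. Hnf4a transcripts were not lower in the tumour cells of the libraries labelled tamoxifen: in the Lyz1-low cells defined below, vehicle gave 60.2 and 54.3 CPM and the libraries labelled tamoxifen gave 90.5 and 86.1 CPM. CPM is the gene's share of all UMIs of a cell group, in parts per 1000000. The labels do not give which Hnf4a exons are flanked, so counts from the end of the transcript do not test the deletion.

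p53 is a transcription factor that is kept scarce in unstressed cells because Mdm2, a ubiquitin ligase and itself a p53 target, marks it for destruction. DNA damage or oncogene signalling frees it, and it then raises genes that halt the cell cycle (Cdkn1a, encoding p21), feed back on the pathway (Mdm2, Ccng1), or favour cell death (Bax, Aen, Phlda3, Eda2r). Cdkn2a encodes p16Ink4a, which blocks the cyclin-dependent kinases Cdk4 and Cdk6, and p19Arf, which holds Mdm2 off p53. In lung tumours, loss of p53 removes a brake on progression. Basal activity of many targets does not need p53, since other factors also bind their promoters.

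Because p53 acts through a short DNA element, the promoter windows of the genes are shown first. p53 binds a pair of 10-base half-sites, and the half-site consensus was searched in RefSeq windows of 300 bases (GRCm38.p6; 250 bases before to 50 after each annotated start). The consensus reads the same on both strands, so a single search covers both. Windows were found for 9 of the 10 genes, the exception being Zmat3, and gave 12 windows in all, since Cdkn1a, Cdkn2a and Aen have 2 starts each. A half-site occurred in 8.36% of all 32851 windows and in 7 of these 12, of which the 2 overlapping Aen windows share 1 half-site. The upstream Cdkn1a window held 2 half-sites side by side with 1 departure from the consensus, an arrangement present in 18 of all 32851 windows (0.0548%), centred 41 bases before the start. A further half-site lay upstream of that pair, within 13 bases of it. Together with the first half-site of the pair it forms a full site without a departure. Full sites, 2 half-sites at most 13 bases apart, occurred in 24 of all 32851 windows (0.0731%). The Cdkn1a window, chr17:29090729-29091028 on the plus strand, is printed with all these matches in capitals.
Cdkn1a upstream window: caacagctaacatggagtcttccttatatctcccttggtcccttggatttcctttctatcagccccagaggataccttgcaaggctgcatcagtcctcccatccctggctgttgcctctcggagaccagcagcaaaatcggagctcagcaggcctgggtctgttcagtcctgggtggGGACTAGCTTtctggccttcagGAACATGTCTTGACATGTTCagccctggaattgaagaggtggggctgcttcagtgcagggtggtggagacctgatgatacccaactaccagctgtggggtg

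The single half-sites of the other windows are given for the genes whose levels are compared below, each with 10 bases on either side and the half-site in capitals, 5′ to 3′ on the strand of the gene. They lie at chr10:117710925-117710954 (minus) for Mdm2, chr11:40755452-40755481 (minus) for Ccng1, chr7:45467080-45467109 (minus) for Bax, chr7:78895927-78895956 (plus) for Aen and chr11:69580274-69580303 (plus) for Trp53.
Mdm2: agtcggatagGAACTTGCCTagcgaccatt
Ccng1: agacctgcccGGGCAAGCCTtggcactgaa
Bax: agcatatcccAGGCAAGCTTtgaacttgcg
Aen: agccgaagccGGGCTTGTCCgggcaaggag
Trp53: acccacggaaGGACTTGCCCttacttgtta
No match was found in the windows of Phlda3, Eda2r and Cdkn2a or at the second Cdkn1a start, which says only that these letters are absent from those windows. Elements inside introns were not searched, and a match is not shown to be bound.

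The genes lie on GRCm38 as follows in GENCODE release M21. Trp53 (ENSMUSG00000059552) spans chromosome 11 from 69580359 to 69591873, Cdkn1a (ENSMUSG00000023067) chromosome 17 from 29090976 to 29100727, and Cdkn2a (ENSMUSG00000044303) chromosome 4 from 89274471 to 89294653. Cdkn2a has 2 protein-coding transcripts with 2 starts that share their last exons, so counts from the 3′ end cannot separate p16Ink4a from p19Arf. Neither of the genes that overlap a member (a predicted gene opposite Cdkn1a, another on the same strand as Bax) reaches its 3′ end. The labels do not give which Trp53 exons lie between the frt sites. Trp53 UMIs can come from outside the deleted part, and they check nothing about the deletion.

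Tumour cells were taken as epithelial-like clusters low in Lyz1, following the rule under which the genes were chosen, and the reference as the cluster high in Lyz1, a lysozyme gene made by alveolar type 2 cells. Clusters were built without the 10 genes, the other p53 genes listed, Cre or FlpO. The Lyz1-high group was a single cluster of 3391 cells (1701 CPM Lyz1, against at most 218 CPM in any other epithelial-like cluster), and the Lyz1-low group comprised 7 clusters with 606, 4006, 771 and 4954 cells per library. The label of the reference holds for the cluster rather than for each cell: 666 of its 3391 cells (19.6%) carried 99.4% of its Lyz1 UMIs. Of the alveolar type 2 list, 9 of 10 genes were lower in Lyz1-low cells by the rule below, against 2.62% of all genes. A further epithelial cluster of 2063 cells, number 9, led by the gut hormone gene Pyy, carried all 8 epithelial markers. Like the named epithelial clusters, it had no epithelial marker among its leading genes. It differed from them in a basophil protease gene there, so it was left unnamed and is described by its number. It made up 1.55%, 12.8%, 2.05% and 12.8% of kept cells.

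Cre UMIs, which mark cells where Flp acted, stood highest in the Lyz1-low cells and cluster 9. Cre stood at 2.75, 3.39, 3.56 and 3.32 CPM in Lyz1-low cells and at 3.39 to 4.41 CPM in cluster 9. It was 1.52, 1.13, 0.74 and 1.45 CPM in Lyz1-high cells and 0.039 and 0.13 CPM in stromal and immune cells before depletion. After depletion the few stromal and immune cells left (376 and 250) gave 0.47 CPM (0.06 to 1.69) and 0.90 CPM (0.11 to 3.25), from 2 Cre UMIs each. These intervals overlap those of the Lyz1-high cells after depletion (0.71 to 1.69 and 0.90 to 2.22 CPM). At least 1 Cre UMI was found in 8.09%, 7.09%, 10.9% and 6.32% of Lyz1-low cells, in 2.72%, 1.41%, 1.54% and 1.68% of Lyz1-high cells, and in 0.0382% and 0.13% of stromal and immune cells before depletion. These groups differ in depth (median 32008 and 31531 UMIs in Lyz1-low, 17273 and 20570 in Lyz1-high, 7154 and 7926 in stromal and immune cells before depletion). Cells without a Cre UMI are not shown to lack the allele, and that all Lyz1-high cells keep p53 was not tested.

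Between the epithelial groups, Trp53 and Cdkn2a were higher in Lyz1-low than in Lyz1-high cells in every library, and no member was lower by the size rule used throughout. That rule calls a gene when at least 1 of the groups reaches 10 CPM and the groups differ at least 2-fold the same way in every library compared, on the scale of log2(CPM + 1). It considered 6 members (Trp53, Cdkn1a, Mdm2, Ccng1, Bax, Cdkn2a) and called 2 higher and 0 lower. Of all 8754 genes considered, 11.6% were called higher and 2.62% lower.

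Trp53 stood at 90.1, 90.1, 75.4 and 79.7 CPM in Lyz1-low cells and at 27.1, 27.5, 27.0 and 29.4 CPM in Lyz1-high cells. The log2 ratio was 1.70 (95% counting interval 1.51 to 1.97), 1.68 (1.59 to 1.84), 1.45 (1.21 to 1.77) and 1.41 (1.30 to 1.58). Transcripts of the gene labelled as deleted were thus counted at the higher level in the tumour clusters.

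Cdkn2a showed the widest gap of the 10 genes. It stood at 361, 407, 412 and 429 CPM in Lyz1-low cells and at 5.32, 14.0, 7.11 and 19.3 CPM in Lyz1-high cells, log2 ratios of 5.84, 4.77, 5.67 and 4.40. After thinning every cell to 2000 UMIs, 39.6%, 43.4%, 44.2% and 46.3% of Lyz1-low cells had a Cdkn2a UMI (73.6%, 78.4%, 82.6% and 81.3% unthinned). The share in Lyz1-high cells was 0.84%, 2.28%, 0.52% and 3.46% after thinning. B cells gave 0.24% and 1.06% before depletion, at median depths of 4897 and 4535 UMIs. In Lyz1-high cells Cdkn2a was called higher after than before depletion, by 1.24 (0.88 to 1.94) on the log2 scale in vehicle and by 1.32 (0.89 to 2.05) in tamoxifen. Among all genes, 0.371% and 0.347% were called higher in those 2 comparisons. Over the same step the share of Lyz1-low cells in the library went from 8.56% to 57.9% in vehicle. Whether free RNA from tumour cells contributes was not tested.

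The arrest gene Cdkn1a was not lower in the Lyz1-low than in the Lyz1-high cells. It stood at 138, 157, 73.9 and 73.98 CPM against 46.1, 58.8, 32.6 and 54.5 CPM, log2 ratios of 1.57 (1.41 to 1.76), 1.40 (1.33 to 1.498), 1.16 (0.93 to 1.45) and 0.43 (0.34 to 0.55). The Lyz1-low value was the higher in all 4 libraries, but the gap fell short of 2-fold in tamoxifen after depletion, so the gene was not called.

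The feedback genes differed in direction. Mdm2 stood at 41.2, 39.3, 40.9 and 40.1 CPM in Lyz1-low and at 26.8, 27.4, 25.5 and 26.9 CPM in Lyz1-high cells, log2 ratios of 0.51 to 0.66. Ccng1, which encodes cyclin G1, a partner of a phosphatase that acts on Mdm2, was the 1 member considered that lay below its Lyz1-high level in every library. Its values were 11.6, 7.89, 13.6 and 10.1 CPM in Lyz1-low and 24.3, 21.2, 21.1 and 20.7 CPM in Lyz1-high cells, log2 ratios of -1.01, -1.32, -0.60 and -0.96, which met the fold in 2 of the 4 libraries. Neither gene was called.

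Of the genes linked to cell death, Bax, a pore-forming protein of the mitochondrial outer membrane, was at 120, 129, 85.9 and 87.1 CPM in Lyz1-low and at 55.8, 66.7, 57.4 and 64.2 CPM in Lyz1-high cells. The log2 ratios of 1.09, 0.94, 0.57 and 0.43 did not meet the rule. Aen, an apoptosis-enhancing nuclease, lay between 8.38 and 11.5 CPM in Lyz1-low and between 7.85 and 9.90 CPM in Lyz1-high cells. Phlda3, which competes with the kinase Akt for membrane lipids, lay between 1.45 and 2.46 CPM in Lyz1-low and between 0.61 and 2.01 CPM in Lyz1-high cells. Zmat3, a zinc finger RNA-binding protein, lay between 3.89 and 5.62 CPM in Lyz1-low and between 6.36 and 7.91 CPM in Lyz1-high cells, lower in all 4 libraries but under the 10 CPM needed for a call. Eda2r, the receptor for ectodysplasin A2, had 1, 2, 0 and 1 UMIs in the Lyz1-low cells and 0, 2, 0 and 0 in the Lyz1-high cells. That is at or under the 3 counts taken as the detection floor, so no ratio is given. Zmat3, Aen, Phlda3 and Eda2r were therefore not considered by the rule.

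**Figure D1:**
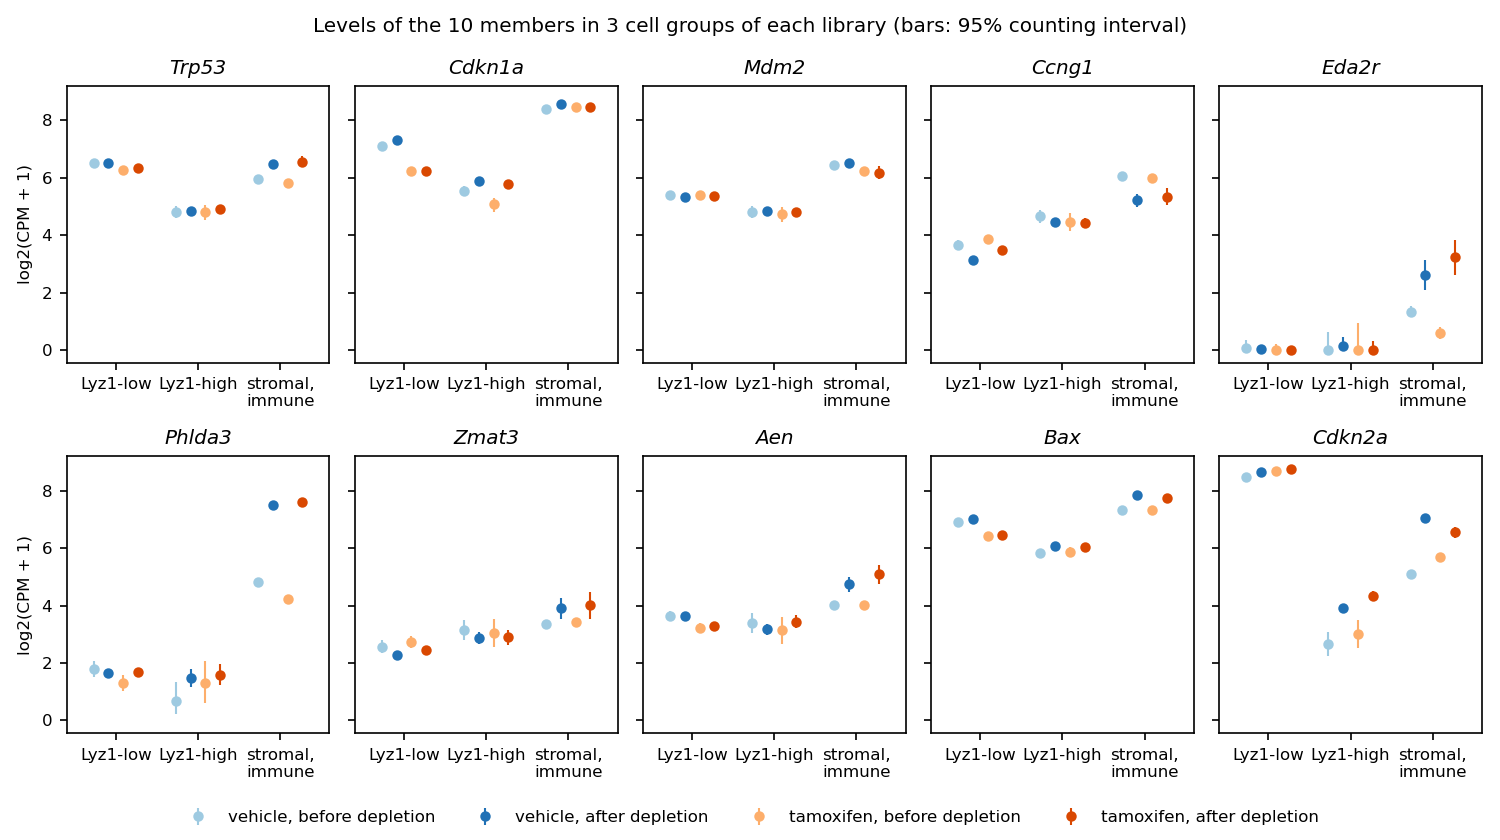
Level of each of the 10 genes, as log2(CPM + 1), in Lyz1-low epithelial, Lyz1-high epithelial and pooled stromal and immune cells; 1 point per library, bars are 95% counting intervals. Of these 3 groups, Cdkn2a is highest and Ccng1 lowest in the Lyz1-low cells in all 4 libraries, and Eda2r lies near 0 in both epithelial groups. After depletion the stromal and immune pool is another mixture, of 376 and 250 cells (vehicle, tamoxifen). Most of these are fibroblasts (196 and 115) and endothelial cells (167 and 123).

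These ratios sit on a general offset. The alveolar type 2 list took 191810 to 233226 CPM of the Lyz1-high cells and 59516 to 85332 CPM of the Lyz1-low cells, and the median log2 ratio over all genes considered was 0.42, against 0.95 over the 6 members. Scaling by the median of gene ratios brought the median of all genes to 0.06. The split of calls then went from 1014 higher and 229 lower to 600 higher and 423 lower, and the mean log2 ratios over the libraries became 1.21 for Trp53, 4.84 for Cdkn2a, 0.79 for Cdkn1a, 0.41 for Bax, 0.23 for Mdm2 and -1.32 for Ccng1. Trp53 and Cdkn2a stayed past the rule. Aen changed sign, from 0.16 to -0.17, with neither value called.

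Splitting the epithelial cells one by one at 170 CPM of Lyz1, in place of by cluster, ended both calls. The mean log2 ratio was then 0.88 for Trp53 and 1.32 for Cdkn2a. Of the 962 cells at or above that cut, 69.2% lay in the Lyz1-high cluster and the others in the Lyz1-low clusters. Both genes differed more between the clusters than with the Lyz1 of a cell inside them. Inside the Lyz1-high cluster Cdkn2a was at 11.02 CPM in the 666 cells above the cut and at 14.5 CPM in the 2725 below it. In the Lyz1-low clusters it was at 350 CPM in the 296 cells above and at 414 CPM in the 10041 below. Trp53 was at 23.3 and 29.2 CPM in the first cluster and at 74.7 and 84.5 CPM in the others.

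Lyz1-low cells with a Cre UMI (49, 284, 84 and 313 cells) had the same pattern against Lyz1-high cells. Trp53 (log2 ratios 1.52 to 1.75) and Cdkn2a (4.47 to 5.82) were called higher and no member lower, where 11.8% and 2.75% of 8655 genes were called. Ccng1 stood at 7.73, 6.35, 12.5 and 8.35 CPM in the Cre-positive cells, log2 ratios of -1.54, -1.60, -0.71 and -1.21. It missed the rule in 1 library and passed it, at a mean of -1.63, under median-of-ratios scaling. Against Lyz1-low cells without a Cre UMI, none of the 5 members considered was called in either direction, and 0% of 8644 genes were called higher and 0% lower. In that comparison Cdkn1a was lower in the Cre-positive cells of vehicle before depletion (102 against 143 CPM, log2 ratio -0.48, -0.68 to -0.30) and higher in those of tamoxifen after depletion (87.8 against 72.7 CPM, 0.27, 0.16 to 0.38). The remaining differences of Trp53, Mdm2, Bax and Cdkn2a lay between -0.07 and 0.37.

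Against stromal and immune cells, taken to keep p53, the tumour cells had less of Cdkn1a, Ccng1 and Phlda3 and more of Cdkn2a. This comparison used the 2 libraries from before depletion, with 5234 and 4624 stromal and immune cells (vehicle, then tamoxifen). The pool, here and elsewhere, leaves out the unnamed cluster 14 (761 and 380 cells), whose markers best matched monocytes or macrophages. The rule considered 8 members and called 1 higher and 3 lower, where 18.8% of all 10304 genes were called higher and 18% lower.

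Cdkn1a was at 138 and 73.9 CPM in Lyz1-low cells and at 333 and 350 CPM in stromal and immune cells, log2 ratios of -1.26 (-1.32 to -1.21) and -2.23 (-2.31 to -2.17). Ccng1 was at 11.6 and 13.6 CPM against 66.3 and 62.7 CPM, log2 ratios of -2.42 and -2.13. Phlda3 was at 2.46 and 1.45 CPM against 27.2 and 17.996 CPM, log2 ratios of -3.03 and -2.95. All 3 were thus lower in the tumour cells of both libraries. Cdkn2a was at 361 and 412 CPM against 33.5 and 50.8 CPM, log2 ratios of 3.39 and 3.00. With cluster 9 counted among the Lyz1-low cells, Cdkn1a lost its call (mean log2 ratio -1.27 in place of -1.74), and that cluster alone stood at 422 and 265 CPM.

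The other targets also lay below the stromal and immune level without meeting the fold in both libraries. The log2 ratios (vehicle, tamoxifen) were -1.03 and -0.86 for Mdm2, -0.41 and -0.88 for Bax and -0.39 and -0.81 for Aen. Zmat3, under 10 CPM in both groups of this comparison, gave -0.79 and -0.70. Eda2r had 1 and 0 UMIs in Lyz1-low cells and 78 and 23 in stromal and immune cells. Trp53 itself was at 90.1 and 75.4 CPM against 61.5 and 55.7 CPM, log2 ratios of 0.54 and 0.43. The median over the 8 members was -0.80, and over all genes considered 0.11.

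The pooled value hides wide differences between cell types, and the order of a gene depended on the type. In 10 named classes with at least 50 cells in both libraries, Cdkn2a was called lower than in Lyz1-low cells in all 10, and Ccng1 was called higher in 8. In B cells (33.0 and 25.3 CPM) and endothelial cells (19.8 and 17.2 CPM) Ccng1 was also above the Lyz1-low level but missed the 2-fold rule. Cdkn1a was called higher in 6 classes, led by neutrophils at 1046 and 1466 CPM, and called lower in B cells at 40.6 and 27.1 CPM. NK cells (121 and 64.1 CPM), T cells (48.99 and 66.4 CPM) and plasmacytoid dendritic cells (22.0 and 41.7 CPM) also lay below the Lyz1-low level without a call.

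Fibroblasts had the largest number of members called higher than in the tumour cells, 5. Phlda3 stood at 231 and 184 CPM there, Mdm2 at 200 and 96.6 CPM, Aen at 33.7 and 27.2 CPM, Ccng1 at 80.5 and 39.2 CPM and Cdkn1a at 345 and 235 CPM. Eda2r reached 25.2 and 9.66 CPM in fibroblasts, against at most 1.72 CPM in any other class. Cdkn2a was also detected in fibroblasts, at 158 and 65.2 CPM. Phlda3 was called higher as well in endothelial cells (41.8 and 51.0 CPM), alveolar macrophages (33.4 and 16.1 CPM) and dendritic cells (15.03 and 13.8 CPM). Neutrophils were the 1 class called lower in Trp53, at 22.97 and 31.6 CPM, and they were called higher in Mdm2, at 141 and 212 CPM. Bax was called in none of the classes.

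For each class, the share of all genes called higher in Lyz1-low cells was 27.3% against B cells, 24.7% against NK cells, 23.5% against T cells, 26.3% against alveolar macrophages and 27.4% against dendritic cells. It was 15.2% against endothelial cells, 15.4% against fibroblasts, 24% against monocytes or macrophages, 39.6% against neutrophils and 23.6% against plasmacytoid dendritic cells. The share called lower was, in the same order, 15%, 16.6%, 16.1%, 15.7% and 14.8%, then 15.8%, 16.2%, 17%, 17.7% and 15.1%. Epithelial markers summed to 277 and 353 CPM in the stromal and immune cells and to 5828 and 5519 CPM in the Lyz1-low cells. Fibroblast markers summed to 26.2 and 61.8 CPM in the Lyz1-low cells (all 6, and 5 of the 6, detected) and neutrophil markers to 30.6 and 43.1 CPM (all 6 detected in both). Their part in these differences was not tested.

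**Figure D2:**
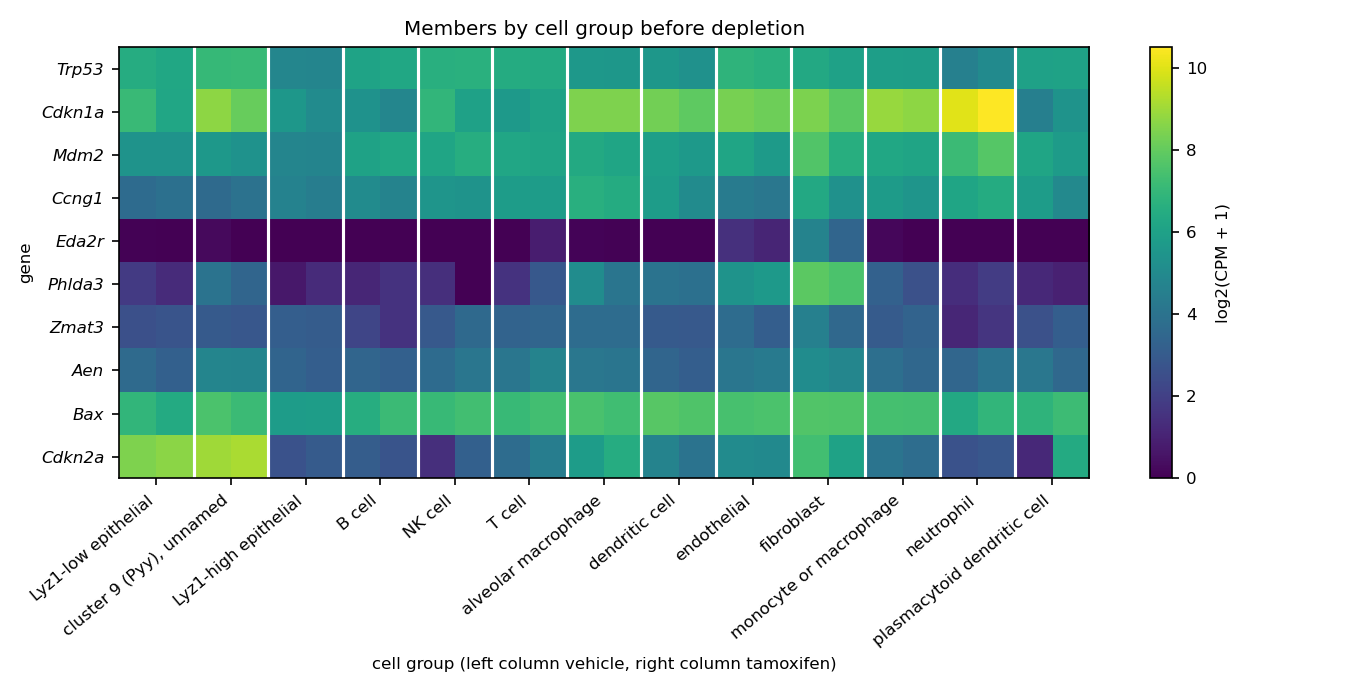
Levels of the 10 genes, as log2(CPM + 1), in the epithelial groups and 10 named cell classes before depletion; for each group the left column is vehicle and the right column tamoxifen. Cdkn2a is brightest in the Lyz1-low cells and cluster 9, Cdkn1a in neutrophils, and Phlda3 and Eda2r in fibroblasts.

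Within the tumour epithelium the members varied unequally. Over the 7 Lyz1-low clusters, Mdm2 ranged from 36.6 to 42.6 CPM, 1.16-fold from lowest to highest, while Cdkn1a ranged 4.90-fold, from 35.9 CPM in cluster 12 (led by Dcpp1, Dlk1 and Bpifa1) to 176 CPM in cluster 8 (led by Ttr, Spink1 and Tff3). These values pool libraries, and the clusters take unequal shares of the arms. In vehicle after depletion Cdkn1a ran from 76.1 CPM in cluster 12 to 209.6 CPM in cluster 15, with cluster 8 at 174 CPM. In tamoxifen after depletion it ran from 23.98 CPM in cluster 12 to 200.4 CPM in cluster 8. Cdkn2a ranged from 240 CPM in cluster 18 (Adarb2, Bex2) to 529 CPM in cluster 12 over the pooled libraries. In vehicle after depletion cluster 12 was highest at 551 CPM, and in tamoxifen after depletion cluster 8 was, at 683 CPM against 524 CPM in cluster 12. Cluster 15 (Rtkn2, Akap5, Hopx) had the highest Ccng1 (18.3 CPM), Aen (16.6 CPM), Phlda3 (6.05 CPM) and Zmat3 (6.25 CPM). The cycling cluster 32, led by Cdc20, Ube2c and Cdk1, had the highest Trp53, 106 CPM, and a Cdkn1a level of 79.9 CPM. Every Lyz1-low cluster exceeded the Lyz1-high cluster in Cdkn2a (13.8 CPM there).

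The unnamed cluster 9 stood above all 7 in Cdkn1a (338 CPM pooled; 422, 396, 265 and 272 CPM by library) and Cdkn2a (671 CPM pooled; 518, 587, 579 and 818 CPM by library). It did so too in Trp53 (130 CPM), Phlda3 (11.8 CPM), Aen (24.1 CPM) and Bax (169 CPM). Ccng1 was inside the range of the 7 clusters, at 11.4, 7.70, 14.8 and 11.9 CPM by library. Its summed level of the 15 mitosis genes, 62.2 CPM pooled, lay inside the 26.4 to 111 CPM of the Lyz1-low clusters other than the cycling cluster 32, which was at 3724 CPM.

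**Figure D3:**
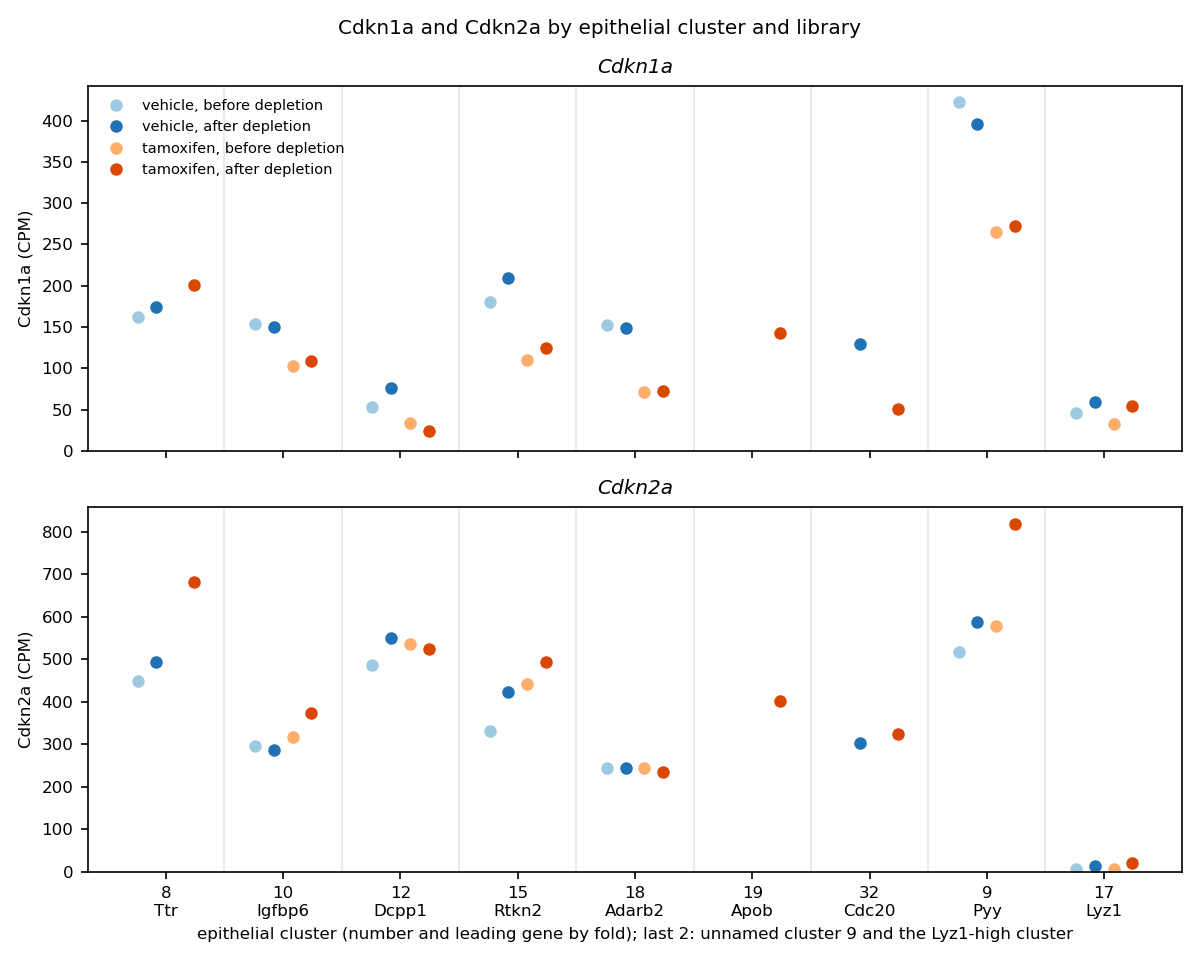
Cdkn1a (top) and Cdkn2a (bottom) in CPM for each epithelial cluster, 1 point per library with at least 50 cells of the cluster; the last 2 positions are the unnamed cluster 9 and the Lyz1-high cluster. Cdkn1a is lower in the tamoxifen than in the vehicle points of most clusters, while Cdkn2a is below 20 CPM only in the Lyz1-high cluster.

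By treatment, the Cdkn1a level in Lyz1-low cells was about 74 CPM in both libraries labelled tamoxifen and 138 and 157 CPM in the vehicle libraries. The 2 libraries of a treatment are portions and not separate animals. The log2 ratio was -0.89 (-0.99 to -0.82) before and -1.07 (-1.12 to -1.04) after depletion, so the fold was met only after depletion and the gene was not called. None of the 7 members considered was called, where 0.416% of all 9125 genes were called higher and 1.29% lower in the libraries labelled tamoxifen.

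Bax was lower in the tamoxifen libraries, with log2 ratios of -0.47 and -0.56, from 120 and 129 CPM to 85.9 and 87.1 CPM. Aen gave -0.42 and -0.36 and Trp53 -0.25 and -0.18. Mdm2 differed by -0.01 (-0.14 to 0.12) and 0.03 (-0.04 to 0.09). Cdkn2a gave 0.19 and 0.08, and Ccng1 0.21 and 0.33. All of these lay under 2-fold, and the median over the 7 members was -0.21, against -0.04 over all genes considered.

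The make-up of the Lyz1-low cells differed between the arms. Cluster 8 held 23.1% and 29.5% of them in vehicle and 1.82% in tamoxifen before depletion. Cluster 12 held 9.74% in vehicle and 30.9% in tamoxifen before depletion. Inside clusters with at least 50 cells in both arms, Cdkn1a was lower in tamoxifen in 4 of 4 clusters before depletion (log2 ratios -1.10 to -0.58) and in 5 of 6 after it (-1.63 to 0.20), cluster 8 being the exception. With the same cluster weights in both arms the ratios were -0.80 and -0.51. Bax was lower in 4 of 4 and in 6 of 6 clusters.

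Outside the Lyz1-low cells, Cdkn1a was also lower in tamoxifen in cluster 9 (log2 ratios -0.67 and -0.54). In Lyz1-high cells it gave -0.49 (-0.80 to -0.20) and -0.11 (-0.24 to 0.02), and in stromal and immune cells 0.07 (0.04 to 0.10). That pooled value joins classes that differed in direction. Cdkn1a was lower in tamoxifen in 6 of the 10 classes: NK cells (121 to 64.1 CPM), B cells (40.6 to 27.1 CPM), fibroblasts (345 to 235 CPM), dendritic cells (313 to 238 CPM), endothelial cells (331 to 289 CPM) and monocytes or macrophages (469 to 427 CPM). It was higher in neutrophils (1046 to 1466 CPM), T cells (48.99 to 66.4 CPM) and plasmacytoid dendritic cells (22.0 to 41.7 CPM), and 359 and 360 CPM in alveolar macrophages. Neutrophil markers in the Lyz1-low cells went from 30.6 to 43.1 CPM before depletion and from 3.06 to 3.61 CPM after it. Alveolar macrophage markers went from 139 to 213 and from 71.5 to 98.8 CPM. The part of these cells in the Cdkn1a difference was not tested. Treatment calls outside the epithelium were limited to classes with at least 100 cells in both libraries, and among those Phlda3 in alveolar macrophages was the 1 member called, 33.4 CPM in vehicle and 16.1 CPM in tamoxifen (log2 ratio -1.005, -1.26 to -0.84), where 0.199% of genes were called lower. Smaller classes had wider gaps and were not considered. In fibroblasts before depletion (119 and 84 cells) Mdm2 was at 200 CPM in vehicle and 96.6 CPM in tamoxifen. Ccng1 was at 80.5 and 39.2 CPM, Cdkn2a at 158 and 65.2 CPM and Eda2r at 25.2 and 9.66 CPM. After depletion (196 and 115 fibroblasts) the gaps of Mdm2 (108 and 84.3 CPM) and Cdkn2a (203 and 142 CPM) were smaller. Ccng1 (51.5 and 63.2 CPM) and Eda2r (8.13 and 14.0 CPM) were then higher in tamoxifen. In plasmacytoid dendritic cells (67 and 73 cells) Cdkn2a was at 1.29 and 86.3 CPM, from 1 and 89 UMIs. The vehicle count is under the 3 counts taken as the detection floor, so no ratio is given.

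**Figure D4:**
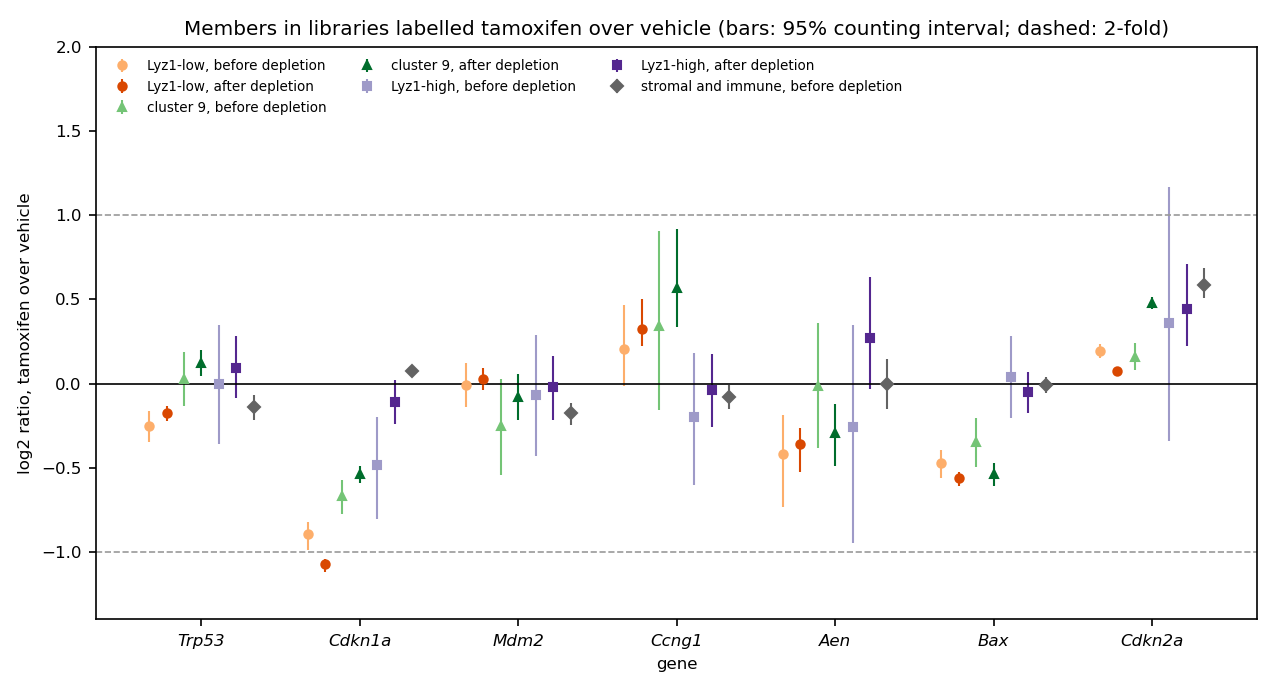
Log2 ratio of tamoxifen over vehicle for the 7 members considered, in Lyz1-low cells, cluster 9, Lyz1-high cells and pooled stromal and immune cells; bars are 95% counting intervals and dashed lines mark 2-fold. Cdkn1a lies at -0.89 and -1.07 in Lyz1-low cells and at 0.07 in stromal and immune cells, and Mdm2 lies near 0 in the Lyz1-low cells.

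A wider list of 36 other p53 targets had calls in both directions, in shares near those of all genes. Against Lyz1-high cells 27 were considered: 4 (Plk2, Gdf15, Ak1 and Pvt1) were higher in Lyz1-low cells and 1 (Dcxr) was lower, where 11.6% and 2.62% of all genes were, with a list median of 0.26 against 0.42 over all genes. Gdf15, a stress-induced cytokine, stood at 318, 463, 95.3 and 139 CPM against 20.2, 38.6, 21.8 and 33.2 CPM. Against stromal and immune cells 31 were considered. Of these, 5 were higher (Sfn, Xpc, Gdf15, Dcxr, Ak1) and 8 lower (Plk3, Sesn1, Pmaip1, Fas, Apaf1, Trp53inp1, Pvt1, Dglucy), where 18.8% and 18% of all genes were, with a median of 0.28 against 0.11. Pmaip1, which encodes the death-promoting protein Noxa, was at 3.7 and 1.5 CPM against 61.1 and 53.4 CPM. The death receptor gene Fas was at 8.6 and 10.2 CPM against 36.2 and 30.7 CPM. By treatment, Gdf15 was the 1 gene of the list called, lower in tamoxifen at log2 ratios of -1.73 and -1.73. With clusters 8 and 19, each mostly of 1 arm, left out, 0 of 27 were called and Gdf15 lost its call.

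Among 16 regulators of p53, Chek2, a DNA damage kinase, and Trp53bp1, a damage-response adaptor, were higher in Lyz1-low than in Lyz1-high cells, 2 of 11 considered where 11.6% of all genes were higher. Against stromal and immune cells Trp53bp1 was higher, and Rb1 (17.6 and 14.3 against 95.2 and 84.2 CPM) and E2f1 were lower, 1 and 2 of 13 where 18.8% and 18% of all genes were. Trp53bp1 lost that call with clusters 8 and 19 left out. These counts are near the shares of all genes. Of the other inhibitors of cyclin-dependent kinases, 4 were considered against Lyz1-high cells, where 11.6% of all genes were called higher. Cdkn2b, the neighbour of Cdkn2a that encodes p15Ink4b, and Cdkn1c, which encodes p57, were higher. Against stromal and immune cells 5 were considered, and 18.8% and 18% of all genes were called higher and lower. Cdkn2b and Cdkn1c were again higher, while Cdkn2c (4.4 and 4.7 against 22.2 and 16.4 CPM) and Cdkn2d (6.9 and 10.7 against 45.1 and 34.7 CPM) were lower. Cdkn1c was lower in tamoxifen (109 to 37.6 CPM before and 138 to 35.5 CPM after depletion, log2 ratios -1.504 and -1.92). Of the 15 mitosis genes, 10 reached the CPM minimum against Lyz1-high cells, and with the cycling cluster 32 left out 0 did, so their calls are not counted here. Of the 10 immediate early and heat shock genes, which dissociation can raise, 1 (Hspa1b) was higher than in Lyz1-high cells, where 11.6% of all genes were. Against stromal and immune cells 6 of the 10 were higher, where 18.8% of all genes were. The part of these 10 genes in the differences above was not tested.

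The genes whose levels ran most like those of the 2 inhibitors were ranked by Pearson's r of log2(CPM + 1) over 34 points, each an epithelial cluster or named class in a library from before depletion, among 13962 genes. For Cdkn1a they were Creb5 (0.88), Slc16a3 (0.87), Rab31 (0.86), Pdlim7 (0.84) and Ptpn12 (0.84). For Cdkn2a they were Cmbl (0.92), Sox9 (0.91), Dnah7b (0.89), Sdsl (0.89) and Foxq1 (0.89). The points share libraries and differ in depth, so these values describe these cells only.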

How the data were processed

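Single cells of mouse lung tumours were profiled with 10x 3′ chemistry, version 3, per the labels' protocols. The authors deposited whole-number UMI counts per gene and cell, made with Cell Ranger 7.0.1 per the file headers (7.2.0 per the submitters' processing notes, which name mm10). Whether introns or strand were used is not given in the sources used here. Of 32285 gene identifiers, 32158 matched GENCODE M21.

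Barcodes under 200 genes or over 20% mitochondrial UMIs were dropped. Scrublet's automatic threshold called 188, 1, 1 and 0 doublets, so cells with a score above 0.25 were removed (225, 120, 116 and 153). Counts were clustered with scanpy 1.11.5 (2000 variable genes, 40 components, 15 neighbours, Leiden resolution 1), leaving out the members, the p53 lists, Cre and flpO. A cluster was named from at least 3 of its class's markers. Clusters 9 and 14, each with a marker of another class among its leading genes, were left unnamed. Cluster 25, of 10 cells, was left unnamed too. UMIs were summed per library and cell group and divided by the total. Levels have exact Poisson intervals, ratios exact conditional binomial intervals without the pseudocount of 1 CPM, and shares Clopper-Pearson intervals; all cover counting error only. The size-rule script was tested on simulated data. The members and lists were chosen with earlier results of these data known. All 10 members are described. Of the other listed genes, those past the size rule were eligible, at most 10 per comparison. Alternatives were scaling, pseudocount, CPM minimum, cell and doublet filters, summary over cells, thinning, the Lyz1 split and, added after seeing the data, which clusters count as Lyz1-low and their weights. One allele shared by all groups is not reported here.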

Additional observations from a re-analysis of the deposited data

Results flagged for a closer look

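The Cdkn1a difference between treatments had opposite signs in 2 cell groups. In Lyz1-low epithelial cells tamoxifen differed from vehicle by -0.89 (log2) before and -1.07 after depletion, while in pooled stromal and immune cells before depletion the difference was 0.0725, and none of the 3 counting intervals reached 0. Inside the pooled group Cdkn1a was lower in tamoxifen in 6 of 10 classes, counted by sign alone. Among these, the counting intervals of the vehicle and tamoxifen levels overlapped in NK cells, B cells and endothelial cells. The difference between the groups was not tested, since each treatment had 1 library per portion.

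UMIs of the viral recombinase flpO, which no comparison used, were found in 3 cells, all in the Lyz1-high cluster. The vehicle library after depletion had 41 flpO UMIs in 1 cell, and the tamoxifen library after depletion had 5 in 1 cell, both above the 3 counts taken as the floor. None of the 3 cells had a Cre UMI, and they had 0, 7 and 0 Cdkn2a UMIs.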

How the results depend on the processing

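No member's log2 ratio that was called changed sign under any alternative, and 8 member values gained or lost a call. The number of genes called in Lyz1-low against Lyz1-high cells was 600 higher and 423 lower with median-of-ratios scaling, 1732 higher with no CPM minimum, and 55 higher and 44 lower with the Lyz1 split per cell, where 0 members were higher. For Cre-positive Lyz1-low against Lyz1-high cells it was 577 and 448 with median-of-ratios scaling (1 member lower, Ccng1 at -1.63) and 1688 higher with no CPM minimum. After thinning it was 652 higher (1 member lower, Ccng1 at -3.19). Ccng1 had 19, 57, 44 and 68 UMIs in the Cre-positive cells before thinning, which kept only a small part of them. The value of -3.19 therefore rests on few counts. With the per-cell split the number was 108 higher and 104 lower (1 member higher, and Trp53 lost its call at 1.07). Against stromal and immune cells no CPM minimum gave 2953 higher and 2830 lower, and Mdm2 was called (-1.10) with the mean over cells. By treatment no CPM minimum gave 60 higher and 246 lower, and leaving out the clusters mostly of 1 arm (8 and 19) gave 56 lower. Cre-positive against Cre-negative cells gave 2 lower after thinning, 9 lower with the per-cell split, and 3 higher and 1 lower without those clusters. Counting cluster 9 as Lyz1-low called Cdkn1a higher in Cre-positive than in Lyz1-high cells (1.71). The causes were not tested.

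The comparisons between cell groups were made within each library. No paired analysis was possible because, by treatment, each group is 1 library. Depth limits Eda2r, with 4 UMIs in all Lyz1-low cells, and Phlda3, Zmat3 and Aen, which lay near or under 10 CPM in both epithelial groups. With 1 library per group, library and treatment cannot be told apart.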
